A study of Mus musculus with 5 samples.

Results

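B and plasma cell nuclei were examined in single-nucleus RNA-seq of the livers of male wild-type C57BL6/J mice. Regular chow was fed for 3 libraries (chow 1 to 3). For the other 2 libraries (MASH 1 and 2) the feed was made up with 2% cholesterol, fructose at 20 kcal% and fat at 40 kcal%, which leads to steatohepatitis of metabolic origin (MASH). Feeding began when the mice were 10 to 12 weeks old and lasted 5 months, and no allele or drug differed between the diets. The number of mice behind each library was not stated, so each p-value measures only the spread between libraries, which may be technical. Transcripts were counted as unique molecular identifiers (UMIs, 1 for each captured RNA molecule), from nuclei sorted for DNA stain and without intronic reads.

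A nucleus was kept if it held at least 300 genes and less than 20% mitochondrial UMIs. B nuclei were chosen by at least 1 UMI in at least 2 of 6 B cell genes (Cd79a, Cd79b, Ms4a1, Pax5, Ebf1 and Bank1), and plasma nuclei by UMIs of both Jchain and Mzb1. Both had to hold 0 UMIs of 6 genes of other liver cells, namely Hnf4a (hepatocytes), Ptprb (endothelium), Pkhd1 (cholangiocytes), Col3a1 (fibroblasts), Clec4f (Kupffer cells) and Cd3e (T cells). This selected 127 B nuclei and 23 plasma nuclei, 150 of the 53198 nuclei kept among 57080 barcodes, with no nucleus in both sets. Chow 1, 2 and 3 gave 28, 3 and 10 B nuclei, and MASH 1 and 2 gave 49 and 37. Plasma nuclei numbered 3, 1 and 17 in chow and 0 and 2 in MASH, so 17 of the 23 came from chow 3. Chow 2 was thus nearly empty of both kinds, and MASH 1 held B nuclei but no plasma nucleus.

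B cells recognise antigen through a membrane immunoglobulin held in complex with the CD79A and CD79B signalling chains, and they show peptides to T helper cells on MHC class II. Naive B cells carry IgM and IgD together. After activation some become plasma cells, which lose the B cell programme, enlarge the endoplasmic reticulum and secrete large amounts of antibody, joined into IgM pentamers or IgA dimers by the J chain. IgA-producing plasma cells have been described in livers with steatohepatitis.

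The libraries held from 35612373 to 49137377 UMIs each. Of the kept nuclei, 47.8%, 38.5% and 31.9% in chow lacked Hnf4a, against 71.2% and 73.8% for MASH. B nuclei were shallow, with medians of 685, 894 and 965 UMIs in chow and 962 and 797 in MASH, and their median mitochondrial share was highest in chow 2 (11.9%) and MASH 1 (10.5%) and lowest in MASH 2 (2.06%). Gm42418, a locus that overlaps ribosomal RNA sequence, took 102, 1415 and 180 of every 10000 B nuclei UMIs in chow and 1022 and 418 in MASH, with a like order in T cell nuclei (112, 1176 and 157, then 900 and 383). Any 2 libraries shared at most 0.399% of the smaller one's barcodes, and no member barcode was shared between members.

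B nuclei carried a B cell programme beyond the genes that chose them. Of the 127, 121 held a UMI of Ighm, Ighd or any of 12 other B cell genes (the B identity list). The share of other nuclei that did so was not counted. Of that list Ralgps2, a B cell nucleotide exchange factor, was found in 63 nuclei, Btla, an inhibitory receptor, in 38, and the inhibitory lectin Cd22 in 33. The least found were Spib in 7, Blk in 5 and Vpreb3 in 4. Cd22 was found in 0.315% of the 25410 Hnf4a-positive nuclei, although those had a median of 4345 UMIs against 847 in B nuclei. Ralgps2 was not as selective, with 30.6% of Hnf4a-positive nuclei holding it. The genes that led B nuclei over all other kept nuclei, among those the rule had not used, were Ighd, Gm31243, Bcl11a, Iglc2 and Cd37, which is a description of how the nuclei were chosen and not a test.

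The rule's own genes were found unevenly. Ebf1, the transcription factor that commits lymphoid progenitors to the B lineage (chromosome 11, 44617317 to 45008091, GRCm38), was present in 101 B nuclei. Cd79a (chromosome 7, 24897381 to 24902197) was present in 74, Bank1, a signalling scaffold, in 66, and both Cd79b and Ms4a1, which encodes CD20, in 50. Pax5, the factor that maintains B identity, was found in 28. Just inside the rule, 46 nuclei held exactly 2 of the 6 genes, and just outside it 311 nuclei held 1. A further 149 nuclei had at least 2 B genes but also a UMI of an excluded gene, most often Hnf4a (79) or Ptprb (73).

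**Figure D1:**
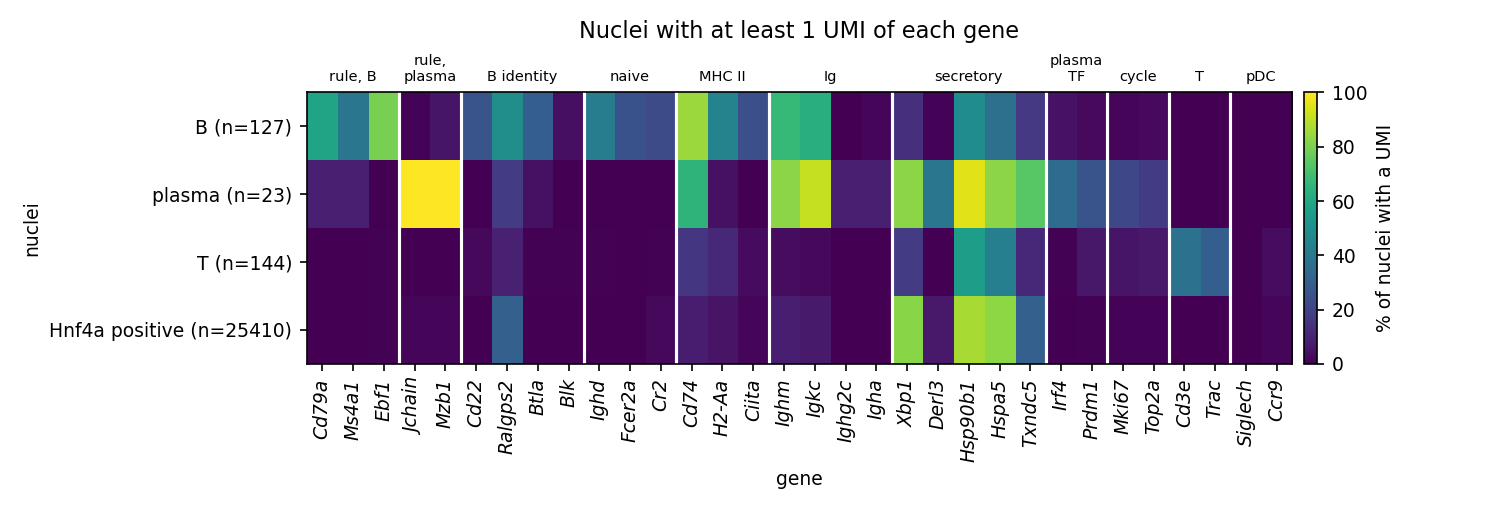
Share of nuclei with at least 1 UMI of each gene (colour, 0 to 100%) for B nuclei (n = 127), plasma nuclei (n = 23), T cell nuclei (n = 144) and Hnf4a-positive nuclei (n = 25410), with genes grouped by role on the horizontal axis. Cd79a, Ms4a1, Ebf1, Jchain and Mzb1 are high where the rule asked for them, Cd74 is high in B and plasma nuclei, and Trac and Siglech, which mark T and plasmacytoid dendritic cells, are at 0 in both.

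The B nuclei were mostly of the IgM and IgD kind. Ighm, the constant region of IgM, was found in 85 nuclei (66.9%) and Ighd in 54 (42.5%), against 8.57% and 0.260% of Hnf4a-positive nuclei. Fcer2a, the low-affinity IgE receptor of follicular B cells, was found in 32 nuclei, Klf2, which keeps lymphocytes recirculating, in 31, and Cr2, the complement receptor CD21, in 29. Class-switched transcripts were found in few B nuclei. Ighg1, Ighg2c and Ighe had 0 UMIs, Ighg2b had 2 and Ighg3 had 1. Igha had 157 of the 438 heavy chain UMIs, but these lay in 2 nuclei, with 153 of them in a single nucleus of MASH 1. Germinal centre and cycling genes were equally sparse, with Mki67 in 2 nuclei and Top2a in 3. The markers Gcsam, Rgs13, Tbx21, Cd5 and Bhlhe41, which label germinal centre, atypical and B1 cells, had 0 UMIs in all 127 nuclei, which at this depth does not show that they were absent.

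Other cell types' markers were counted in the same B nuclei. Of the plasmacytoid dendritic list 9 nuclei held 1 gene and none held 2, and Siglech, Ccr9, Klk1, Cox6a2 and Pacsin1 were at 0. The T and NK list was found in 4 nuclei, with Cd3d, Cd3g, Trac, Trbc2 and Skap1 at 0. Macrophage list genes occurred in 24 nuclei (4 with at least 2), stellate and fibroblast genes in 28 (4), endothelial genes in 25 (4) and cholangiocyte genes in 40 (6). These were uneven between the diets. The macrophage list was found in 1, 0 and 0 B nuclei of chow and 14 and 9 of MASH, the stellate and fibroblast list in 0, 1 and 1 and then 14 and 12, and the endothelial list in 5, 0 and 4 and then 8 and 8. The cholangiocyte list, which includes Spp1, was found in no B nucleus of chow and in 19 and 21 of MASH. Per 10000 UMIs the macrophage list ran from 0 to 2.43 in chow and 3.03 to 5.77 in MASH, the stellate list from 0 to 3.55 and 2.87 to 4.84, and the cholangiocyte list was 0 and then 7.34 to 10.6. Of these lists only Marco was at 0 in every B nucleus. Their part in the diet comparisons of B nuclei was not tested. Hepatocyte genes such as Alb and Apoa1 occurred in 126 of the 127, and T nuclei held them too (144 of 144). One B nucleus of chow 1 held nearly all of the neutrophil list's UMIs.

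The first question was whether the diet changed how many B nuclei a liver gave. B nuclei made up 0.331% (95% exact Clopper-Pearson interval 0.220 to 0.479), 0.0239% (0.00494 to 0.0700) and 0.0915% (0.0439 to 0.168) of the nuclei kept in chow, and 0.487% (0.361 to 0.644) and 0.329% (0.232 to 0.454) in MASH. Intervals here and below cover counting error only. MASH 2 lay just below chow 1, so the diets overlapped. The means were 0.149% ± 0.162 (SD, n = 3) in chow and 0.408% ± 0.112 (SD, n = 2) in MASH, a difference of 0.259 percentage points that did not exceed the spread between libraries (two-sided exact permutation test, p = 0.3, adjusted p = 0.7 over 6 share tests). With 3 libraries against 2 this test cannot give a p below 0.1.

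Nuclei without Hnf4a were the other denominator. They still held hepatocyte transcripts (Xdh, for example, in 64.0% of them in MASH 1 when B, plasma and T nuclei were set aside). Against them, B nuclei were 0.694%, 0.0623% and 0.287% in chow against 0.684% and 0.446% for MASH. Chow 1 was as high as MASH 1. The means of 0.348% ± 0.320 (SD, n = 3) and 0.565% ± 0.168 (SD, n = 2) did not differ beyond the spread (exact permutation p = 0.5, adjusted p = 0.7). Among lymphocytes, B nuclei were 53.8, 33.3 and 41.7 per 100 B and T nuclei in chow and 48.0 and 44.0 in MASH (exact permutation p = 0.7, adjusted p = 0.7). T nuclei were those with at least 2 of 7 T cell genes, 24, 6 and 14 in chow and 53 and 47 in MASH. The difference of 3.09 per 100 turned to -1.71 without chow 2, which gave 3 B and 6 T nuclei, and to -27.4 with a mitochondrial limit of 5%. Under that limit the values were 65, 100 and 40 per 100 in chow and 36.4 and 45.5 in MASH, where the 100 of chow 2 is a single B nucleus with no T nucleus.

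The mitochondrial limit did not touch the libraries equally. It removed 2767 barcodes from MASH 1 and 51 to 378 from each of the others. Among the barcodes that the depth and mitochondrial limits left out, 20 in MASH 1 and 4 in the other libraries together would otherwise have counted as B nuclei. With a limit of 5% the B nuclei numbered 13, 1 and 4 in chow and 8 and 25 in MASH.

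Plasma nuclei were unlike B nuclei in number and in source. They made up 0.0355%, 0.00798% and 0.156% of nuclei kept in chow, and 0% and 0.0178% in MASH, where 0 of 10057 nuclei in MASH 1 allows a share of up to 0.0298% when 3 counts are taken as the limit (0.0367% as the upper end of the exact interval). The means of 0.0664% ± 0.0785 (SD, n = 3) and 0.00890% ± 0.0126 (SD, n = 2) did not differ beyond the spread (exact permutation p = 0.5, adjusted p = 0.7). Against nuclei without Hnf4a the means were 0.194% ± 0.256 and 0.0121% ± 0.0171 (exact permutation p = 0.6, adjusted p = 0.7, n = 3 and 2). Chow 3 carried most of this: without it the difference in the share of nuclei kept went from -0.0575 to -0.0128 percentage points.

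Set against B nuclei, plasma nuclei were 9.68 (95% exact interval 2.04 to 25.8), 25 (0.631 to 80.6) and 63.0 (42.4 to 80.6) per 100 B and plasma nuclei in chow. In MASH they were 0 (0 to 7.25) and 5.13 (0.627 to 17.3). All 3 chow libraries were above both MASH libraries, although the chow 2 value rests on 1 plasma nucleus of 4. The mean was 32.5 ± 27.4 (SD, n = 3) in chow and 2.56 ± 3.63 (SD, n = 2) in MASH, and the test did not pass its threshold (exact permutation p = 0.2, adjusted p = 0.7). Without chow 3 the difference was -14.8 in place of -30.0.

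**Figure D2:**
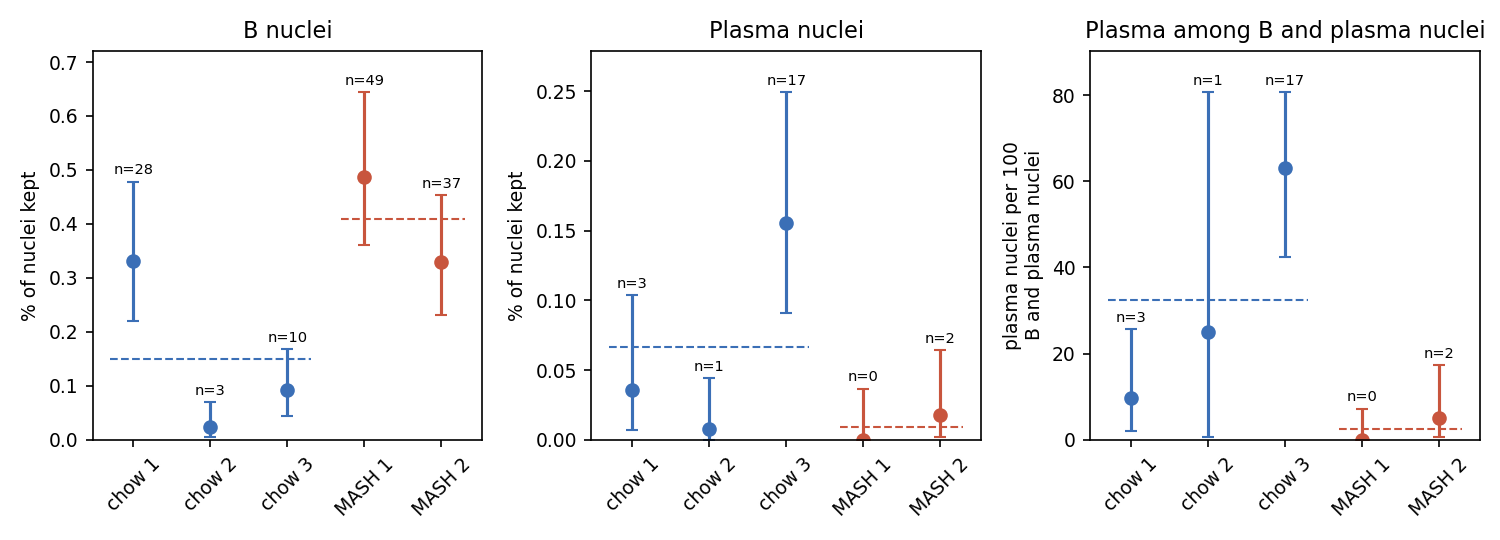
B nuclei (left) and plasma nuclei (middle) as a percentage of nuclei kept, and plasma nuclei per 100 B and plasma nuclei (right), with 1 point a library, bars for the exact 95% counting interval, dashed lines for the mean of each diet and the number of nuclei above each bar. On the left chow 1 (0.331%) lies level with MASH 2 (0.329%), in the middle chow 3 (0.156%) stands above the other libraries, and on the right the chow points lie above those of MASH with wide bars.

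The plasma nuclei showed the secretory state in their transcripts. Jchain and Mzb1, an endoplasmic reticulum cochaperone of immunoglobulin assembly, were required by the rule. Beyond them, 20 of the 23 nuclei held at least 20 UMIs of immunoglobulin constant genes, from 80 to 793 UMIs, which made up 3.06 to 55.6% of the nucleus's UMIs with a median of 12.9%. The other 3 nuclei, 2 of chow 3 and 1 of MASH 2, held at most 1 such UMI. Of the nuclei that met the plasma rule in MASH, 1 was immunoglobulin-rich, with 80 UMIs.

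**Figure D3:**
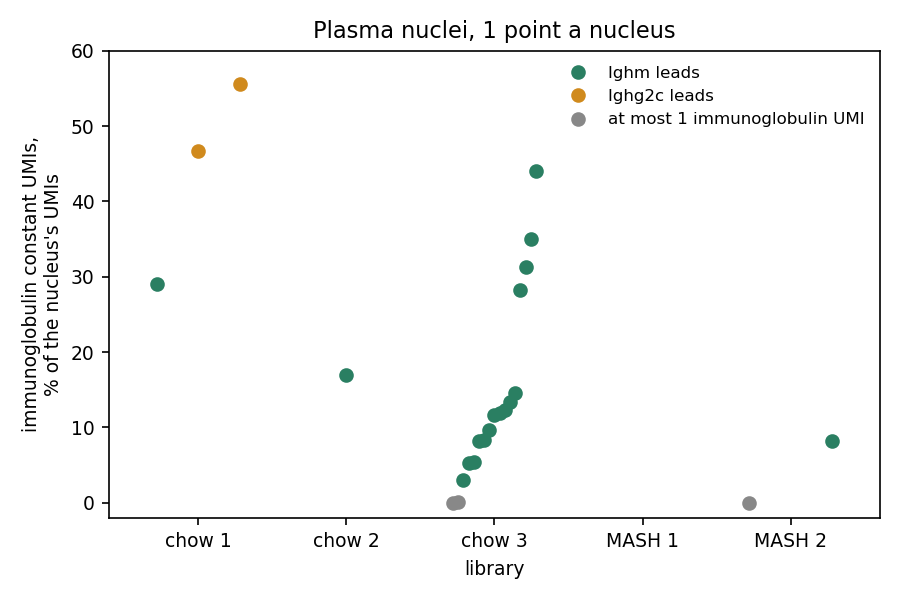
Immunoglobulin constant UMIs as a percentage of all UMIs of each plasma nucleus (1 point a nucleus, 23 in all), by library, spread sideways for display and coloured by the leading heavy chain gene. Chow 3 holds 17 points, chow 1 the highest (55.6%), MASH 1 none, and 3 points lie at the bottom with at most 1 immunoglobulin UMI.

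IgM led in 18 of the 20 immunoglobulin-rich plasma nuclei. Ighm (chromosome 12, 113418558 to 113422730) had 158, 137 and 1820 UMIs in the plasma nuclei of chow 1, 2 and 3 and 35 in MASH 2. Ighg2c led in the other 2, both of chow 1, with 285 UMIs. Igha (chromosome 12, 113254830 to 113260236), the IgA constant region, had 0 of 443 heavy chain UMIs in chow 1, 0 of 138 in chow 2, 2 of 1827 in chow 3 (0.109%) and 0 of 35 in MASH 2. The difference of -0.0365 percentage points had an exact permutation p of 1, where 3 libraries against 1 cannot go below 0.25. Igkc, the kappa light chain (chromosome 6, 70726435 to 70726966), gave 2621 UMIs against 52, 53 and 47 of Iglc1, Iglc2 and Iglc3.

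The transcription factors and folding genes of plasma cells were found in part. Irf4 was present in 8 plasma nuclei and Prdm1, which encodes BLIMP1, in 6, against 0.138% and 0.559% of Hnf4a-positive nuclei. Derl3, a degradation factor of the endoplasmic reticulum, was found in 9 and Ell2, the elongation factor that favours the secreted heavy chain, in 15. Xbp1, the driver of the unfolded protein response, was found in 19, but 82.3% of Hnf4a-positive nuclei also held it, so it does not mark plasma nuclei here. Sdc1, which encodes CD138, was seen in 2 and Tnfrsf17, which encodes BCMA, in none.

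Chaperones were abundant in the plasma nuclei of chow 3. Hsp90b1 (GRP94) was found in 22 of 23 at 61.1 UMIs per 10000 over all plasma nuclei, against 6.78 in B nuclei, but by library it stood at 15.3, 8.29 and 78.3 in chow and 3.46 in MASH 2. Hspa5 (BiP) was found in 19 at 35.1 per 10000, against 5.80 in B nuclei, and by library at 6.13, 8.29 and 45.1 in chow and 1.73 in MASH 2. Outside chow 3 these values rest on 6 nuclei and at most 5 UMIs a library, and those of MASH 2 lay below the B level. Txndc5, a disulfide isomerase, stood at 13.7 per 10000 against 1.54. Creld2 and Manf, both secreted in the unfolded protein response, stood at 6.87 and 8.77 per 10000 against 0.280 and 1.19. These are descriptions of a chosen set of nuclei, taken mostly from chow 3.

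The B genes of the rule and Cd22 were low in the same nuclei. Cd79a and Ms4a1 were each found in 2 of the 23, and Cd79b, Ebf1, Pax5, Bank1 and Cd22 in none. Ralgps2 was found in 17.4%, against 49.6% of B nuclei. Not all B cell genes were lower: Pou2af1 was found in 30.4%, against 8.66% of B nuclei (3.32 against 0.979 UMIs per 10000). Blnk was found in 26.1% against 22.8%, but its level was lower, at 1.42 against 2.73 per 10000. Plasma nuclei were deeper, with a median of 1510 UMIs against 847 in B nuclei, which raises the share of nuclei in which a gene is found. Cd74, the invariant chain of MHC class II, remained in 15 while H2-Aa was found in 1 and Ciita, the class II transactivator, in 0. Proliferation genes were seen in some: Mki67 in 5 and Top2a in 4, with either in 6 nuclei, of which 5 were in chow 3 and 1 in chow 1. All 6 held at least 20 immunoglobulin UMIs. In chow 3, Ighv1-53 was found in 5 of 17 plasma nuclei and Igkv3-2 in 4, with both in 3, against 0.0940% and 0.175% of that library's Hnf4a-positive nuclei.

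The next question was which genes differed between diets in B nuclei. UMIs were summed over the B nuclei of each library with at least 10 of them, chow 1 and 3 against MASH 1 and 2, and tested with edgeR's quasi-likelihood test with Benjamini-Hochberg adjustment. Chow 2, with 3 nuclei, did not enter the fit. Of 497 genes tested 16 were called at an adjusted p under 0.05 (3.22%), 6 higher (1.21%) and 10 lower (2.01%) in MASH, with 60 at an unadjusted p under 0.05. The median log2 fold change of all 497 was 0.08. Sums over nuclei cannot tell fewer cells of a type from less RNA in each cell. Without chow 3 none of 1091 genes was called (75 at an unadjusted p under 0.05). That fit holds chow 1 as the lone chow library, which is assumed to vary like the MASH libraries. DESeq2 called 8, of which 7 were among the 16.

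**Figure D4:**
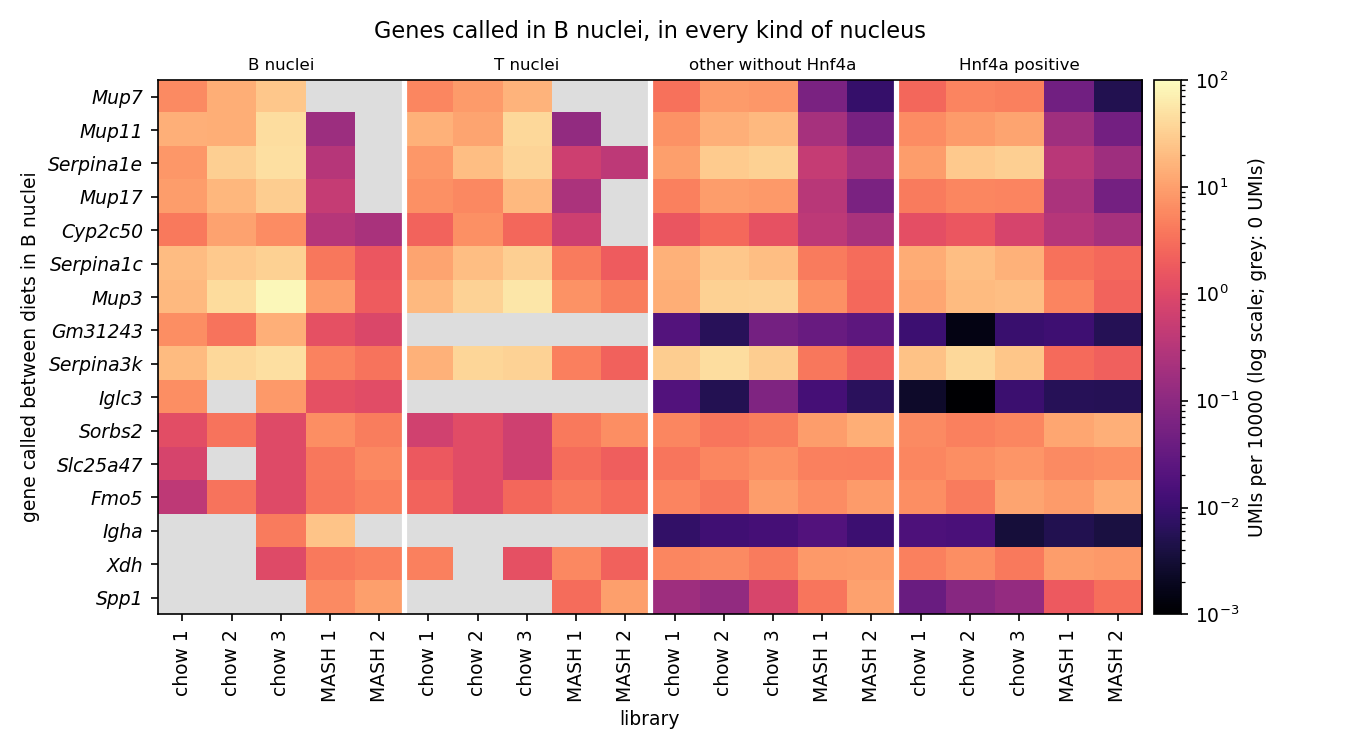
Level of the 16 genes called in B nuclei (rows) in each library (columns) for B nuclei, T nuclei, other nuclei without Hnf4a and Hnf4a-positive nuclei, as UMIs per 10000 on a log colour scale with grey for 0 UMIs. The Mup, Serpina and Cyp2c50 rows are darker in MASH than in chow in all 4 kinds of nucleus, Spp1 is grey in chow in B and T nuclei, and Iglc3 and Gm31243 are grey in T nuclei.

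Of the 10 genes that fell, 8 are known as products of hepatocytes. They are the major urinary proteins Mup3, Mup7, Mup11 and Mup17, the protease inhibitors Serpina1c, Serpina1e and Serpina3k, and the cytochrome P450 Cyp2c50. Mup7 had 15, 4 and 25 UMIs in chow and 0 in both MASH libraries, at least 41.3-fold lower when 3 UMIs over both MASH libraries are taken as the floor and chow 1 and 3 as the chow group (fitted log2 fold change -8.40, SE 1.14, edgeR adjusted p = 2.02e-10, a fit that is no bound). Mup11 had 36, 4 and 44 UMIs in chow and 1 and 0 in MASH. Serpina1e had 20, 9 and 46 in chow and 2 and 0 in MASH. In each of these 3 genes every chow library with 10 or more B nuclei was above both MASH libraries in UMIs per 10000, as was chow 2.

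In MASH 1 and 2 the same 8 genes were below all chow libraries in T nuclei, in Hnf4a-positive nuclei and in the remaining nuclei without Hnf4a. How many of all genes had that order in those nuclei was not counted. Mup11, for example, had 15.2, 11.4 and 40.3 UMIs per 10000 in T nuclei of chow and 0.120 and 0 in MASH. The summed hepatocyte list (7 genes) took 177, 358 and 469 of every 10000 B nuclei UMIs in chow and 118 and 70.3 in MASH, and in T nuclei 140, 332 and 407, then 108 and 64.2. All 7 of its genes were tested in B nuclei, 1 was called (Serpina1c, lower) and all had a fold change below 0, with a median of -1.38 against 0.08 over all genes. Cps1 (log2 fold change -1.83, SE 0.63, edgeR adjusted p = 0.0894) and Fgb (-2.02, SE 0.74, edgeR adjusted p = 0.118) of that list did not pass. The levels of these transcripts in the other kinds of nuclei thus moved with the fall in B nuclei, and their part in the result was not tested.

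Iglc3 and Gm31243 were the called genes without that pattern. Iglc3, a lambda light chain constant gene (chromosome 16, 19065230 to 19065681), had 16, 0 and 8 UMIs in chow and 8 and 5 in MASH, or 6.47, 0 and 8.43 per 10000 against 1.28 and 1.15 (log2 fold change -2.16, SE 0.68, edgeR adjusted p = 0.0477). Chow 1 and 3 were above both MASH libraries, and chow 2 held none in 2820 UMIs. It had 0 UMIs in T nuclei. Iglc2, a near-identical gene elsewhere on chromosome 16 (19198396 to 19200351), had 15, 0 and 11 UMIs in chow and 17 and 3 in MASH (log2 fold change -1.78, SE 0.64, edgeR adjusted p = 0.105). Reads could be split between the pair, so both values are uncertain. The Iglc3 call was lost when any 1 of the 4 libraries was left out (edgeR adjusted p from 0.224 to 0.591). Each such fit leaves 1 diet with a lone library, assumed to vary like the other diet's pair, as do those for Gm31243.

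Gm31243 is annotated as an antisense gene (chromosome 3, 135904344 to 136167184, plus strand) that overlaps 113822 bases of Bank1, 1 of the 6 genes of the rule, on the other strand. It had 16, 1 and 14 UMIs in chow and 8 and 4 in MASH, and was found in 9, 1 and 8 nuclei against 6 and 4. Per 10000 UMIs it stood at 6.47, 3.55 and 14.8 in chow and 1.28 and 0.922 in MASH, with every chow library above both MASH libraries (log2 fold change -2.71, SE 0.67, edgeR adjusted p = 4.17e-03). Of the 28 B nuclei that held it 19 also held Bank1, which is found in 66 of 127. It had 0 UMIs in T nuclei and at most 0.0111 per 10000 in Hnf4a-positive nuclei. Whether the reads came from the antisense strand could not be checked in count tables. The call held without chow 1 (edgeR adjusted p = 3.24e-03) and was lost without chow 3 (0.591), MASH 1 (0.200) or MASH 2 (0.515).

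Of the 6 genes that rose, Spp1 was the most changed. Spp1, which encodes the secreted protein osteopontin (chromosome 5, 104435118 to 104441050), had 0 UMIs in the B nuclei of all chow libraries and 37 and 43 in MASH 1 and 2, in 15 and 21 nuclei with at most 11 in any 1. That is at least 8.61-fold higher with 3 UMIs over chow 1 and 3 as the floor (edgeR adjusted p = 1.03e-05). In T nuclei it was likewise at 0 in chow and at 2.99 and 9.69 per 10000 in MASH, and it was called there too. In Hnf4a-positive nuclei it stood at 0.0382, 0.0867 and 0.123 per 10000 in chow and 1.75 and 3.12 in MASH. It is on the cholangiocyte list, and the other cholangiocyte genes of that list were too low to be tested in B nuclei.

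Xdh, Fmo5, Slc25a47 and Sorbs2 also rose. Xdh, the purine-oxidising xanthine dehydrogenase, had 0, 0 and 1 UMIs in chow and 25 and 21 in MASH, a ratio of 14.8 (95% exact counting interval 2.53 to 599). Fmo5, a flavin monooxygenase, had 1 in each chow library and 23 and 20 in MASH (ratio 6.94, interval 1.81 to 59.1). Slc25a47, a mitochondrial carrier, had 2, 0 and 1 in chow and 24 and 25 in MASH (ratio 5.27, interval 1.70 to 26.4). Sorbs2, a cytoskeletal adaptor, had 3, 1 and 1 in chow and 42 and 19 in MASH (ratio 4.92, interval 1.83 to 18.6). These ratios compare chow 1 and 3 with both MASH libraries, and the edgeR adjusted p-values were 9.20e-03, 0.0477, 0.0477 and 0.0455. The calls were mostly lost under the alternative settings in which each gene was tested. They were kept in 2 of 10 for Xdh, 1 of 11 each for Fmo5 and Slc25a47 and 2 of 12 for Sorbs2. Some of those settings leave 1 diet with a lone library. Sorbs2 was also above all chow values in MASH 1 and 2 for T nuclei, in Hnf4a-positive nuclei and in the other nuclei without Hnf4a. Fmo5 and Slc25a47 were so in T nuclei, and Xdh in Hnf4a-positive nuclei and in the other nuclei without Hnf4a. The share of all genes with such an order in those nuclei was not counted. In MASH 1 these transcripts were found in 80.1% (Slc25a47) to 91.0% (Sorbs2) of Hnf4a-positive nuclei. The part of such transcripts in the rise in B nuclei was not tested.

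Igha was called as higher (log2 fold change 3.53, SE 0.88, edgeR adjusted p = 4.30e-03), but the diets overlapped. Its UMIs were 0, 0 and 4 in chow against 153 and 0 for MASH. All 153 lay in 1 nucleus of MASH 1. DESeq2 gave an adjusted p of 0.986, and without immunoglobulin-rich B nuclei the gene was no longer tested. Among all B nuclei only 2 held an Igha UMI. The nucleus of MASH 1 held 311 immunoglobulin UMIs (23.9% of its UMIs) and 16 Jchain UMIs, but 0 of Mzb1, and so did not meet the plasma rule.

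The diet test was repeated on fewer B nuclei. When the B nuclei that held a UMI of any plasmacytoid, T and NK, macrophage, neutrophil, stellate, endothelial or cholangiocyte list gene other than Spp1 were left out, an alternative chosen after these genes were seen, edgeR called 0 of 226 genes (4 at an unadjusted p under 0.05). This kept 22, 2 and 5 nuclei in chow and 16 and 12 in MASH, so chow 3 fell below 10 nuclei and chow 1 was again the lone chow library, with fewer genes to test. Hepatocyte transcripts and Spp1 played no part in this choice of nuclei.

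Genes of the B cell programme did not pass the test. Of the B identity list 4 of 12 genes were tested and 0 called, with a median log2 fold change of -0.39 against 0.08 over all genes. The B cell receptor signalling list had 4 of 17 tested and 0 called (median -0.39), and the naive follicular list had 4 of 9 tested and 0 called (median -0.02). At an unadjusted p under 0.05 these edgeR counts were 0, 0 and 1, and DESeq2 called none of the same genes. Summed over all its genes, the B identity list took 34.4, 21.3 and 40.0 of every 10000 UMIs in chow and 16.8 and 27.0 in MASH, where MASH 2 lay above chow 2. The signalling list took 46.9, 24.8 and 42.1 in chow and 20.6 and 30.2 in MASH, with the same overlap.

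Antigen presentation genes were widely found in B nuclei. Cd74 was found in 108 of 127 (85.0%), H2-Eb1 in 64, H2-Ab1 in 60 and H2-Aa in 57, against 8.11% of Hnf4a-positive nuclei for Cd74. Cd74 stood at 28.3, 10.6 and 53.7 per 10000 in chow and at 18.2 and 17.1 in MASH, and H2-Ab1 at 10.1, 14.2 and 10.5 and then 4.47 and 5.07. For Cd74 chow 2, with 3 UMIs, was the lowest library. For H2-Ab1 both MASH libraries were below all chow libraries, as were 104 of the 497 genes tested (20.9%) in the libraries of the fit. Of the 9 genes on the list 5 were tested, 0 were called by edgeR (0 at an unadjusted p under 0.05) or DESeq2, and 4 had a fold change below 0, with a median of -0.75.

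**Figure D5:**
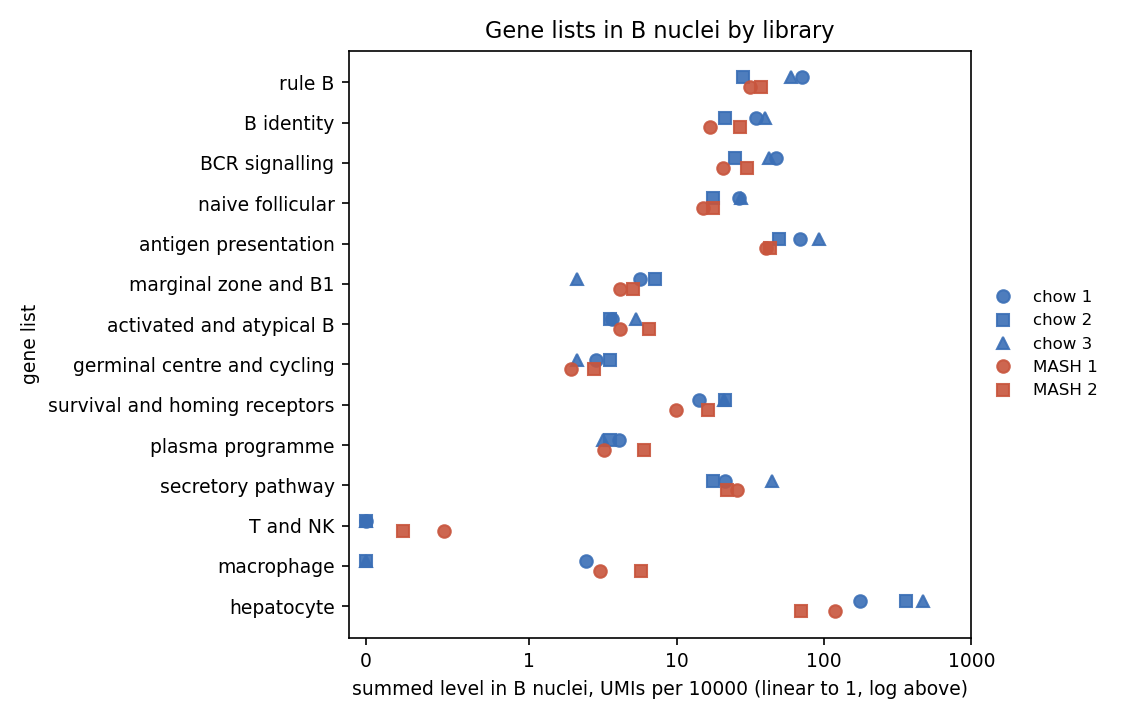
Summed level of gene lists in the B nuclei of each library, as UMIs per 10000 on an axis that is linear to 1 and logarithmic above, with colour for diet and shape for library. Antigen presentation runs from 40.4 in MASH 1 to 92.7 in chow 3 and the hepatocyte list from 70.3 in MASH 2 to 469 in chow 3, while T and NK genes are at 0 in chow and at most 0.479 in MASH.

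To see whether any diet difference was particular to B nuclei, it was compared with that in T nuclei of the same libraries. In T nuclei edgeR called 9 of 600 genes (1.50%). Mup7, Mup11, Mup17, Serpina1e, Spp1 and Sorbs2 were called in both. For the difference between the diet effects, edgeR called 0 of 787 genes, with 58 at an unadjusted p under 0.05, and DESeq2 called 0, with 6 at an unadjusted p under 0.05. Nothing is therefore called particular to B nuclei. This count changed with 1 library, reaching 6 genes without chow 3 and 3 without MASH 2.

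The class II genes had some of the lowest p-values of that comparison without passing it. For Cd74 the diet effect in B nuclei minus that in T nuclei was -2.59 on the log2 scale (SE 0.75, edgeR adjusted p = 0.149), and for H2-Ab1 it was -3.52 (SE 1.12, edgeR adjusted p = 0.203). Cd74 UMIs in T nuclei were 2, 0 and 1 in chow and 15 and 15 in MASH, so the T side of the comparison rests on few molecules. H2-Ab1 had 1, 0 and 0 in T nuclei of chow and 10 and 10 in MASH.

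Homing and survival receptors were sparse in B nuclei. Of 15 genes 2 were tested and 0 called by edgeR (1 at an unadjusted p under 0.05) or DESeq2. Itga4, the alpha 4 integrin chain, was found in 31 nuclei, Cxcr4 in 17, Tnfrsf13b (TACI) in 14 and Tnfrsf13c (BAFF receptor) in 12. Itgb1, the beta 1 integrin chain, was found in 1, 0 and 1 nuclei of chow and 9 and 10 of MASH, or 0.809, 0 and 1.05 per 10000 against 1.76 and 2.77, where MASH 1 and 2 exceeded each chow library, with too few UMIs to stand out from the 20.9% of genes tested with that order. Lymphotoxin beta (Ltb) was found in 35 nuclei, and Tnf, Lta and Il6 had 0 UMIs.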

How the data were processed

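Nuclei of frozen liver were sorted and run on the 10x 3' kit. The authors made the deposited UMI count matrices with Cell Ranger 8.0.1 on GRCm38 without intronic reads, and removed doublets only later, so the matrices hold none of their cell names or doublet calls. The rule for nuclei was applied to these raw counts. The nuclei and gene lists were chosen with earlier results of these data known. UMIs were summed per library and tested with edgeR 4.0.16 (quasi-likelihood, TMM, filterByExpr, adjusted p under 0.05) in R 4.3.3. Shares used exact permutation over libraries. Beside list genes, the called genes without overlap between diets were named, up to 10 in each direction. Plasma nuclei could not be fitted, as only chow 3 held at least 10. Doublet calls by Scrublet (scanpy 1.11.5) numbered 0 to 3 per library, so none was removed in the results, and the top scores, at 0.8% per 1000 nuclei, were removed as an alternative. The edgeR code was tested on simulated data. Levels are UMIs per 10000, unscaled. Gene positions come from GENCODE. No sequence is shown.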

Additional observations from a re-analysis of the deposited data

How the results depend on the processing

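The 16 genes called in B nuclei became 8 with DESeq2, 10 with no low-count filter, 9 with doublets removed, 0 with at least 20 nuclei a library, 8 without immunoglobulin-rich nuclei and 0 without nuclei with other cell types' markers, and 0 to 11 when 1 library was left out (10 without chow 1 or MASH 2, 0 without chow 3). Each fit with 1 library left out has a lone library in 1 diet, assumed to vary like the others. The limit of 20 nuclei leaves out chow 3 and is the same fit as without it, and leaving out nuclei with other cell types' markers also drops chow 3. The genes behind these counts were not all among the 16. Shared with them were 7 of the 8 called with DESeq2 and 6 of the 10 with no low-count filter. A strict low-count filter called 20, of which 11 were shared, and 8 of the 9 with doublets removed were shared. Leaving Ebf1 out of the rule put chow 3 at 8 B nuclei, so that fit also lacks it. None of the 16 changed direction. In T nuclei the 9 calls became 17 with no low-count filter, 23 with a strict one, 5 with doublets removed and 4 to 24 with 1 library left out (16 without chow 1, 24 without MASH 1, 4 without MASH 2). The 0 calls between B and T nuclei became 3 with no filter, 2 with doublets removed, 6 with at least 20 nuclei, 6 without Ebf1 in the rule and 0 to 6 with 1 library left out (6 without chow 3, 3 without MASH 2). The cause was not tested. B nuclei per 100 B and T nuclei reversed to -27.4 at a mitochondrial limit of 5%, where chow 2 is 1 B nucleus and no T nucleus, and to -1.71 without chow 2 (-1.71 to 8.54 with 1 library left out). With 1 library left out, the MASH minus chow differences were 0.180 to 0.351 and 0.0746 to 0.390 for B nuclei (of kept nuclei and of those without Hnf4a, in percentage points), -0.0867 to -0.0128 and -0.269 to -0.0355 for plasma nuclei, -41.4 to -14.8 for plasma per 100 B and plasma nuclei and -0.0547 to 0 for the Igha share. Cps1, not called, was called without Ebf1 in the rule (log2 fold change -2.45, edgeR adjusted p = 0.0151). Replicate numbers 1 and 2 are shared between diets. The deviations of same-numbered libraries from the mean of their diet had r = -0.227 and -0.287. With 2 MASH libraries the MASH deviations are mirror images of each other. These values therefore cannot tell whether same-numbered libraries share more than a number. A replicate block on numbers 1 and 2 gave share differences of 0.231, -0.0128, 0.187, -0.0355, -14.8 and 2.45, in the same direction as without it, and could not be fitted in the gene tests, where the libraries share 1 number. Alternatives of the plasma gene test were not run. A median of 847 UMIs limits what single B nuclei can show.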

Other observations

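Signals that act on B cells were read in all kept nuclei, as values with no test. Tnfsf13b (BAFF), the survival factor of mature B cells, had 42, 16 and 55 UMIs in chow and 88 and 135 in MASH. Tnfsf13 (APRIL), which sustains plasma cells, had 69, 83 and 45 in chow and 274 and 357 in MASH. Both were higher in each MASH library than in each chow library, as UMIs and per 10000 (Tnfsf13b 0.0119, 0.00363 and 0.0112 against 0.0270 and 0.0367, Tnfsf13 0.0195, 0.0188 and 0.00918 against 0.0842 and 0.0970). The share of all genes with that order in all kept nuclei was not counted. Nuclei without Hnf4a made up 31.9 to 47.8% of the kept nuclei in chow and 71.2% and 73.8% in MASH. The part of this make-up in the values was not tested. Ccl20, the ligand of CCR6, had 0, 0 and 1 UMIs in chow and 15 and 36 in MASH. Cxcl13, the chemokine that draws B cells into follicles, ran the other way, with 10, 28 and 41 UMIs in chow and 1 and 4 in MASH.

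Immunoglobulin-rich nuclei were also found outside the rule. Of all kept nuclei 77 held at least 20 immunoglobulin constant UMIs, 10, 8 and 54 in chow and 4 and 1 in MASH. Of these, 20 were plasma nuclei, 2 were B nuclei, 33 held an excluded gene and 22 met neither rule. Ighm led in 6 of the 10, 6 of the 8 and 51 of the 54 in chow, in 2 of the 4 in MASH 1 and in the 1 of MASH 2. Igha led in 1, 1 and 0 of them in chow, in 2 of the 4 in MASH 1 and in 0 in MASH 2. Choosing plasma nuclei by at least 20 such UMIs in place of Jchain and Mzb1, an alternative chosen after this was seen, gave 7, 3 and 30 in chow against 3 and 1 for MASH. Chow 3 again held most of them.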
